A study of Mus musculus with 27 samples.

Results

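Hearts under pressure overload were compared with sham-operated hearts: 4 libraries of each kind, 8 of the 27 libraries of a series on C57BL/6J mouse hearts. They were the columns of the deposited count table that carry the names TAC and sham, and all 57683 listed features were taken, 20031 protein-coding genes and 36991 NONCODE transcripts (mostly long noncoding RNAs, listed by n-numbers) among them. Transverse aortic constriction (TAC) is surgery that narrows the aorta, so that the left ventricle pumps against a raised load; sham animals are the operated controls. Both groups were C57BL/6J mice aged 12 weeks, the TAC animals had carried the constriction for 4 weeks, and RNA came from the ventricular apex. Each library is a separate heart per the series' design, the labels give no transgene or drug, and neither the severity of the constriction nor the time of day of collection was known here. The labels call 7 of the animals male and 1, TAC F1, female. The rest of the series, E13.5 embryos and unoperated adults, was not compared here.

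A ventricle that pumps against raised pressure thickens its wall by enlarging its cardiomyocytes. Its muscle cells then switch on genes of the fetal heart, among them natriuretic peptides and the slow myosin Myh7, while fibroblasts lay down collagen and the use of fatty acids as fuel is often reduced. The response is known from RNA studies of many hypertrophy models, and the gene lists below are grouped by these roles.

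Total counts ran from 7958592 to 11561952 in sham and from 10411417 to 11846819 in TAC libraries. Levels are in CPM, counts relative to the total of the library, scaled by edgeR's TMM factors and not by gene length, so they compare libraries, not genes. Values stand in the order sham 1, 2, 3, 4 and TAC 1, 2, 3, F1, and fold changes are TAC over sham. Y-linked genes held 663, 0, 2 and 812 counts in the sham libraries and 155, 338, 1 and 389 in the TAC libraries. The libraries labelled sham 2, sham 3 and TAC 3 (all male by label) and TAC F1 (female by label) thus went against their sex label, and counts are also given for the other 4 libraries alone. No TAC library reached the Y-linked level of sham 1 and sham 4, 62.5 and 70.4 CPM. TAC 1, TAC 2 and TAC F1 were at 14.2, 29.9 and 37.3 CPM. The match of TAC 1 and TAC 2 to their label rests on the presence of such counts, and the reason for the lower level was not tested. Sham 2 stood apart a second time: mitochondrially encoded genes held 1.77% of its counts and 5.67% to 6.44% in the other sham libraries, against 1.35% to 1.95% in TAC. The first principal component, with 55.8% of the variance, separated TAC from sham. The second, with 10.6%, separated sham 1 and 4 from sham 2 and 3. Markers of heart muscle were abundant: the 10 cardiomyocyte markers summed to between 123090 and 169247 CPM in every library. They cannot tell the apex from other parts of the heart. The lung, liver and thymus genes listed reached at most 0.642 CPM (Ttr in TAC 1), and Sftpc, Alb and Rag1 were at 0 in all 8. Of the skeletal muscle genes in that list, Tnnt3 rose from a mean of 0.68 to 2.16 CPM. Ckm, at means of 2308 and 2769 CPM, did not pass, and the others were too rare to test.

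Of 14555 features with enough counts to test, 2847 (19.6%) were higher and 2681 (18.4%) lower in TAC at an adjusted p under 0.05 (edgeR's quasi-likelihood test with Benjamini-Hochberg adjustment over all features tested, the source of every adjusted p here). Only such features are said to have risen or fallen. Among 11617 protein-coding genes, 2735 (23.5%) rose and 1650 (14.2%) fell, the median log2 fold change was 0.06, and the groups did not overlap in 35.7%. Counts of list and marker members below are to be read beside the 23.5% and 14.2%. Changes of at least 2-fold were fewer, 396 coding genes up (3.41%) and 112 down (0.964%). With the 4 libraries that match their sex label, 2538 coding genes rose and 1571 fell. The split moved with the setting: 62.4% of coding calls were increases, against 71.8% with DESeq2, 72.7% with no filter on low counts and 51.8% with the NONCODE features left out. The calls moved with transcript length as well. When coding genes were ranked by exonic length in 5 equal groups, in the shortest group (279 to 2029 exonic bases) 32.3% rose and 8.77% fell, and in the longest (6135 to 116832 bases) 15.6% rose and 25.2% fell. Without sham 2 these shares were 30.5%, 8.86%, 15.2% and 25.5%. The part of transcript length in the results below was not tested.

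**Figure D1:**
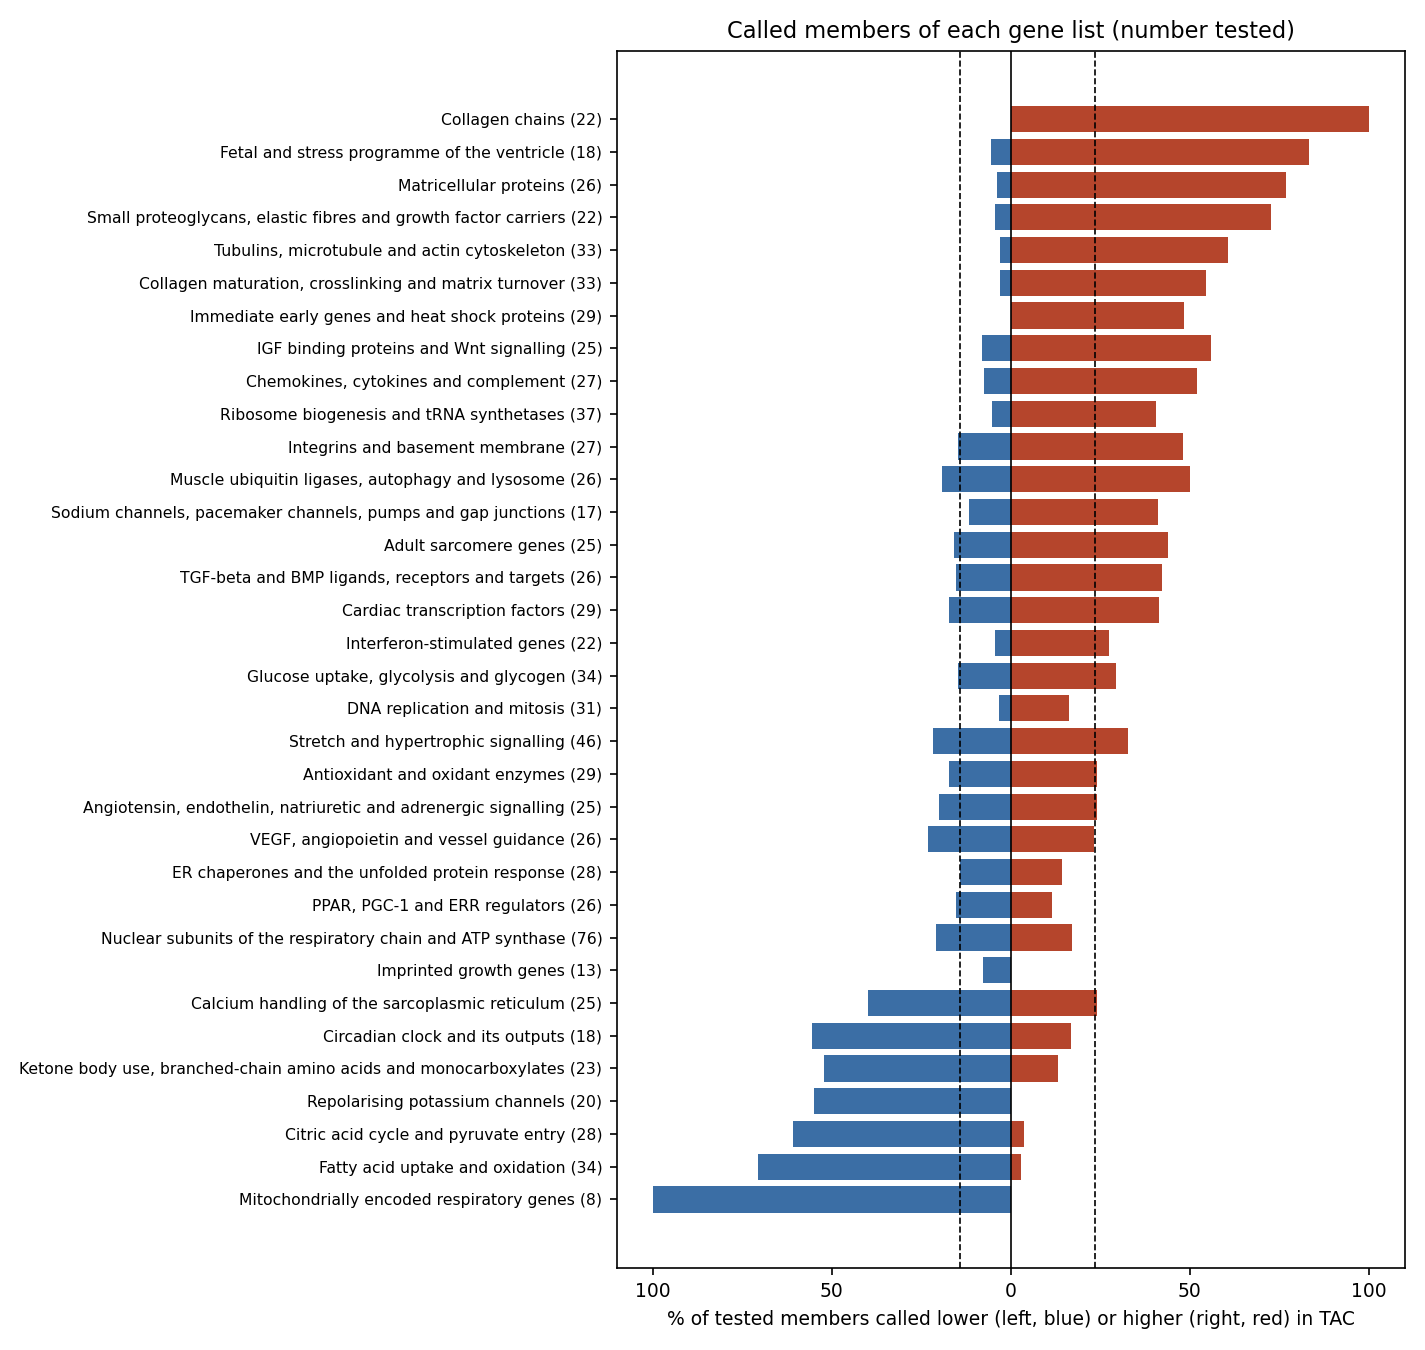
Share of the tested members of each gene list that rose (red, right) or fell (blue, left) in TAC, in %, with the number tested in brackets; dashed lines mark the shares over all tested coding genes, 23.5% higher and 14.2% lower. All 22 tested chains of the collagen list are on the right, and fatty acid, citric acid cycle, potassium channel and mitochondrially encoded genes extend left.

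The fetal and stress programme of the ventricle rose. Of 18 tested members 15 rose and 1 fell, with a median log2 fold change of 1.24 against 0.06 over all coding genes, and the same 15 to 1 count was found without sham 2. Nppa encodes atrial natriuretic peptide, a hormone that atria make at all ages and ventricles mainly before birth and under load. It stood at 185, 177, 208 and 183 CPM in sham and at 2667, 2037, 3239.5 and 2312 CPM in TAC. All 4 TAC hearts lay far above all 4 sham hearts, with a log2 fold change of 3.77 ± 0.14 (SE; adjusted p = 5.4e-08), or 13.6-fold. Nppb, which encodes brain natriuretic peptide, stood at 216, 105, 105 and 209 CPM against 502, 747, 475 and 477. The groups did not overlap, the fold change was smaller than for Nppa (1.79 ± 0.33, adjusted p = 0.0069), and TAC 2 was the highest library.

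Skeletal alpha-actin, Acta1, an actin that the fetal heart uses, had a log2 fold change of 4.56 ± 0.35 (adjusted p = 0.00017), the largest in the list. Its levels were 358, 234, 382 and 323 CPM in sham and 11315, 8314, 4595 and 6316 CPM in TAC. No TAC heart came near the sham range, and TAC 1 had more than double the level of TAC 3. Cardiac actin, Actc1, rose far less (0.30 ± 0.07), so Acta1 made up 2.74%, 1.86%, 2.87% and 2.53% of the counts of both actins in sham and 43.5%, 32.7%, 23.4% and 29.2% in TAC (exact two-sided permutation test, p = 0.0286, the smallest that 4 against 4 can give; 0.0381 adjusted over 4 such shares). These actins are near-identical in their coding sequence, and it is not known here how reads that fit both were counted.

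The switch between the heart's myosins was small in share. Myh7, the slow beta-myosin, stood at 391, 390.0, 399 and 394 CPM in sham and at 2292, 2870.1, 2282 and 1112 CPM in TAC (2.44 ± 0.29, adjusted p = 0.0009). The sham hearts were nearly level, and TAC F1 was well below the other TAC hearts but above every sham heart. The adult fast myosin Myh6 ran from 53734 to 68166 CPM in sham and from 50823 to 63160.3 CPM in TAC, with overlapping groups (-0.05 ± 0.09, adjusted p = 0.70), and its sign turned in 5 of the alternative settings. Myh7 was 0.582% to 0.728% of the counts of both myosins in sham and 4.07%, 4.35%, 4.3% and 1.87% in TAC (exact two-sided permutation test, p = 0.0286, 0.0381 adjusted). Myh6 and Myh7 lie next to each other and share much sequence, which carries the same doubt about shared reads as the actins.

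Ankrd1, a stretch-responsive protein of the sarcomere and nucleus, rose from 1822, 723, 1587 and 1889 CPM to 6609, 7354, 5701 and 4178 CPM (1.99 ± 0.35, adjusted p = 0.0057), with sham 2 the lowest of all. Its relative Ankrd23 rose as much and more evenly (2.0 ± 0.11, adjusted p = 5.4e-08). Rcan1, a target and inhibitor of the calcium-activated phosphatase calcineurin, rose 3.60-fold, from 42.2 to 56.9 CPM in sham to 133 to 202 CPM in TAC. Gdf15, a secreted stress signal, was at 0.52 to 1.41 CPM in sham and 5.19 to 13.8 CPM in TAC (3.26 ± 0.42, adjusted p = 0.00024). Xirp1, Xirp2, Csrp3, Actn1, Enah, Mybpc2 and Myl4 rose as well, with log2 fold changes of 0.46 to 1.66. The member that fell was Tnnt1, the slow skeletal troponin T (-0.40), and smooth muscle actin, Acta2, did not pass (-0.08).

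**Figure D2:**
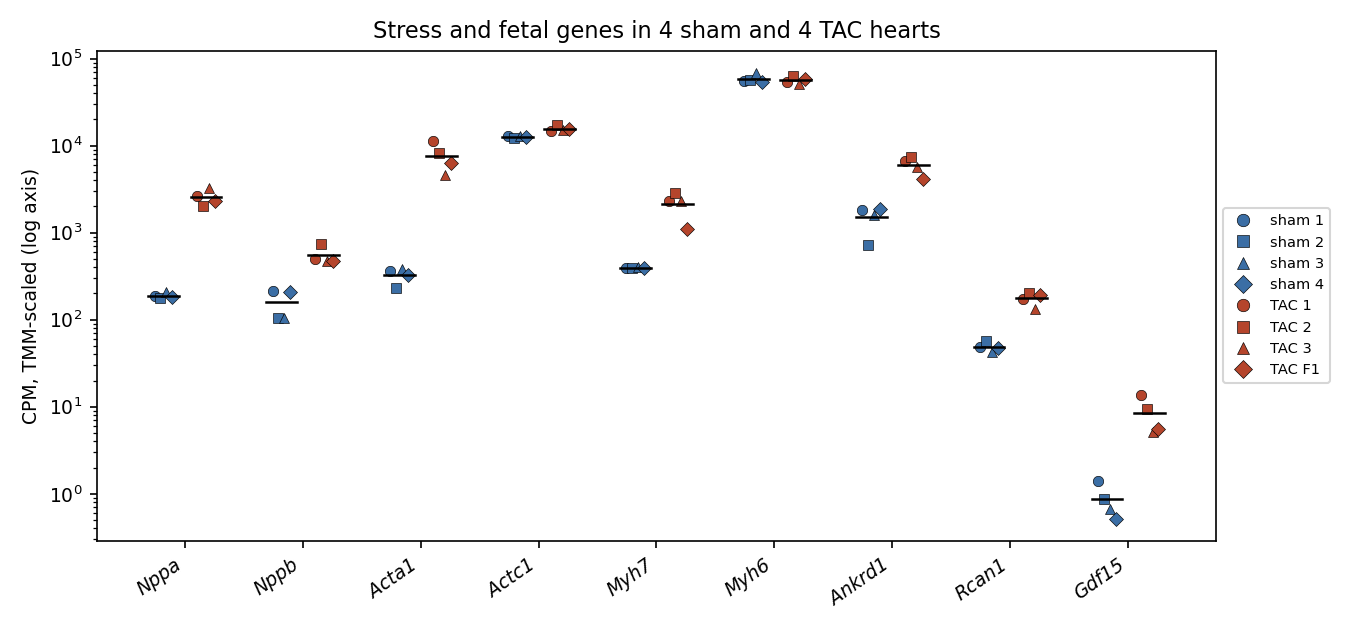
Level of 9 stress and fetal genes in CPM (log axis) in each of 4 sham (blue) and 4 TAC (red) libraries, 1 symbol per library, with bars at group means. Nppa, Acta1 and Myh7 of the TAC hearts lie above the whole sham range, TAC F1 is the lowest TAC heart for Myh7 at 1112 CPM, and Myh6 overlaps.

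Since the stress genes rose together, the DNA just before their start sites is shown. These are the 250 bases before the start in RefSeq (GRCm38.p6), 5′ to 3′ on the strand of the gene, with matched motifs in capitals: an MCAT element (CATTCC), which factors of the TEAD family bind and which is active in muscle genes, a GATA site, or a CArG box, which SRF binds, each on either strand. The GATA site was searched as AGATAA and, for its other common form in heart genes, also as TGATAA. Nppb lies at chr4:147985650-147985899, Nppa at chr4:148000472-148000721 (both plus strand), Acta1 at chr8:123894776-123895025 and Ankrd1 at chr19:36119845-36120094 (both minus strand).
Nppa: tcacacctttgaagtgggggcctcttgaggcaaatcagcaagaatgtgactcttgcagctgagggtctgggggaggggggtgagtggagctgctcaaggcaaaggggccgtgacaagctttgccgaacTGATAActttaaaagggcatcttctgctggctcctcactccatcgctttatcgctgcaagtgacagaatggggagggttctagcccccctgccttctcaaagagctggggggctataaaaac
Nppb: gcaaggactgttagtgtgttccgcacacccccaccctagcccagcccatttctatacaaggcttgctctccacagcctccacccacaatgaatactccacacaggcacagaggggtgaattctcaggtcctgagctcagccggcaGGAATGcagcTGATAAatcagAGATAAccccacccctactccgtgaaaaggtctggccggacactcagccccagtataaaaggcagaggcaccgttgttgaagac
Acta1: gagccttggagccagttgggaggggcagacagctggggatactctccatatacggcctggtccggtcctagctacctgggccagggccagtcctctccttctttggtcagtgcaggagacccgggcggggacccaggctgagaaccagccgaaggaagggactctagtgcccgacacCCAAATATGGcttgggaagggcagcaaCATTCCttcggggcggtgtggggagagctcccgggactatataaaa
Ankrd1: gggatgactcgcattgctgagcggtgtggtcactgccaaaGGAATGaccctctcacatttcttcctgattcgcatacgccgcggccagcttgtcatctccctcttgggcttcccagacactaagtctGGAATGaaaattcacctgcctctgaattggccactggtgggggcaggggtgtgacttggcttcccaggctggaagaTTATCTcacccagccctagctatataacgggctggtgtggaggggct
The natriuretic genes are neighbours, 14822 bases from start to start. The Nppa window holds a GATA site 122 bases before the start, and the Nppb window an MCAT element at 105 and GATA sites at 95 and 84. Acta1 has a CArG box at 73 and an MCAT element at 46, and Ankrd1 has MCAT elements at 210 and 123 and a GATA site at 47.

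These motifs are common, so a match is a description of the letters and not a site of binding. In windows from 250 bases before to 50 after the start, both strands searched, an MCAT element was found in 14.6% of 27025 promoters and a GATA site in 19%. For the CArG box the share was 1.57% and for the MEF2 site 0.566%, while AP-1 (TGANTCA) was in 7.93% and an ERR element (TNAAGGTCA) in 1.26%. Among genes that rose, 13.2% held an MCAT element, among those that fell 11.5%, and among all tested 11.8%. For GATA the shares were 8.71%, 9.21% and 9.32%.

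The sarcomere itself changed unevenly. Of 25 tested adult sarcomere genes 11 rose and 4 fell, with a median of 0.12. Ttn, the giant spring protein titin, fell from 25295, 23518, 33204 and 26512 CPM to 14934, 13142, 13908 and 15841 CPM (-0.91 ± 0.10, adjusted p = 9.6e-06). The groups lay well apart, and Ttn belongs to the longest length group, in which decreases were commonest. Tnni3, cardiac troponin I, fell by 0.43, as did Nebl (-0.52) and the myosin kinase Mylk3 (-0.41). Des, the muscle intermediate filament desmin, rose by 0.88, Myot (myotilin) by 1.12, and the tropomyosin Tpm2 by 0.88. The Z-disc protein Actn2 (0.46) and myosin-binding protein C, Mybpc3 (0.52), rose less.

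Calcium-handling genes of the sarcoplasmic reticulum fell more often than they rose, 10 against 6 of 25. The share that fell was 40%, against 14.2% of coding genes, and the share that rose was 24%, near the 23.5% of coding genes. Of the 25 genes, 13 belong to the longest length group, in which 25.2% of coding genes fell and 15.6% rose. Pln, phospholamban, the brake on the calcium pump of the reticulum, fell from 583, 438, 605 and 651 CPM to 311, 272, 297 and 338 CPM (-0.90 ± 0.11, adjusted p = 7.0e-05). The lowest sham heart was sham 2, and it still exceeded every TAC heart. Ryr2, the calcium release channel (-0.62), its anchor Trdn (-0.51) and the L-type channel subunits Cacnb2 (-0.44) and Cacna1c (-0.19) fell. The T-type channels Cacna1g (0.55) and Cacna1h (1.17) rose, but Cacna1h lost its call in 5 of 8 fits that left out 1 library, as did Casq1. The list depended on single libraries: 5 members fell without sham 3 and 3 rose without sham 1, and with the 4 libraries that match their label 6 fell and 8 rose. The pump gene Atp2a2 has no exonic base that is free of other listed features and held no count, so it could not be measured.

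Among repolarising potassium channels 11 of 20 (55%) fell and none rose (median -0.25), against 14.2% of coding genes that fell. A positive change that did not pass was found in 5 of the 20, the largest of 1.13. Kcnv2, a silent subunit that modifies other channels, dropped from 20.1, 20.3, 18.1 and 20.8 CPM to 6.33, 6.98, 6.71 and 7.20 CPM (-1.54 ± 0.11, adjusted p = 1.0e-07), with little spread in either group. Kcnj2, the main inward rectifier of the resting potential, fell by 1.45 ± 0.14, from 45.3 to 70.4 CPM in sham to 17.2 to 22.3 CPM in TAC. Kcnd2, a pore of the transient outward current, fell by 1.23, its partner Kcnd3 by 0.46, and their accessory subunit Kcnip2 by 0.46 ± 0.13 (adjusted p = 0.017). Kcnj3 and Kcnj5, which form the acetylcholine-gated channel, fell by 1.13 and 0.55, and Abcc9, a subunit of the ATP-sensitive channel, by 0.60. Kcnq1, Kcnj11, Kcnk3 and Kcna5 did not pass, with log2 fold changes between -0.11 and 0.25. With the 4 libraries that match their label, 10 fell and 1 rose, and 1 also rose without sham 1 or without TAC F1. Of 17 sodium, pacemaker and gap junction genes 7 rose and 2 fell, but 4 rose without sham 1 or sham 4. The gap junction gene Gja1 did not pass (0.01).

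All 22 tested chains of the collagen list rose, with log2 fold changes from 0.54 (Col4a5) to 3.88 (Col8a2) and a median of 1.16. The list holds 23 chosen chains and not every collagen gene. Of these chains 19 belong to the longest length group, in which only 15.6% rose. The count was 22 without sham 2 and 20 with the 4 libraries that match their label. Col1a1, a chain of fibrillar type I collagen, stood at 213, 229.8, 185 and 186 CPM in sham and at 827, 543, 1053 and 622 CPM in TAC (1.90 ± 0.22, adjusted p = 0.00062). Col3a1 stood at 285, 358, 229 and 275 CPM against 858, 694, 1752 and 854 (1.86 ± 0.34, adjusted p = 0.0063). Both groups were separate for both genes, and TAC 3 was the highest heart. TAC 3 was highest in 14 of the 22 chains and TAC 2 was lowest in 19. Col12a1, which coats collagen fibrils and was near 1 CPM in sham, reached 4.33 to 13.9 CPM (3.55 ± 0.47). The type IV chains of basement membrane and the type VI chains rose by 0.54 to 1.22, less than Col8a1 (2.28).

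Matricellular proteins, which sit in the matrix and signal to cells more than they bear load, rose in most cases. Of 26 tested, 20 rose and 1, Thbs2, fell (-0.67), with a median of 1.09. Thbs4, a thrombospondin, rose from 4.43, 4.61, 5.95 and 5.81 CPM to 143, 53.6, 92.7 and 70.9 CPM (4.12 ± 0.40, adjusted p = 0.0004), and its relatives Comp and Thbs1 by 4.07 and 3.60. Cilp, a cartilage matrix protein, rose from 12.4, 16.4, 9.12 and 13.9 CPM to 299, 130.3, 238 and 157 CPM (3.97 ± 0.35, adjusted p = 0.0003). In both genes every TAC heart lay several-fold above every sham heart, TAC 1 was highest and TAC 2 lowest.

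Postn, periostin, a marker of activated fibroblasts, went from 21.8, 23.0, 25.5 and 23.1 CPM to 131, 71.7, 194 and 128 CPM (2.49 ± 0.31, adjusted p = 0.0013). With the 4 libraries that match their label its fold change was 2.17 but did not pass (adjusted p = 0.0621). For Tnc, tenascin-C, the size of the change depended on 1 heart: its TAC levels were 10.3, 10.2, 55.3 and 10.4 CPM against 1.57 to 2.64 CPM in sham (3.31 ± 0.87, adjusted p = 0.026). Without TAC 3 its fold change was 2.25, still called, and it lost its call when any sham heart was left out. Ctgf, a growth factor of the same class and a target of stretch signalling, did not pass (0.77 ± 0.32, adjusted p = 0.105). Its groups were nonetheless separate, at 40.8 to 111 CPM in sham and 128 to 179 CPM in TAC.

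The small proteoglycans and elastic fibre genes rose in 16 of 22 and fell in 1. Ltbp2, which binds fibrillin, went from 4.62, 5.20, 3.96 and 4.68 CPM to 142, 63.7, 107 and 92.6 CPM (4.44 ± 0.30, adjusted p = 5.5e-05), and Fmod, fibromodulin, from 0.433 to 1.59 CPM to 12.4 to 34.5 CPM (4.40 ± 0.45). Decorin, Dcn, the common proteoglycan of resting fibroblasts, did not change by the test (-0.02), nor did Lum (0.58) or Ogn (-0.30). Fbn1, the main fibrillin, rose by 1.38 and Bgn (biglycan) by 1.29. Of 33 genes of collagen maturation and turnover 18 rose and 1, Timp3, fell (-0.71). Loxl1, a crosslinking enzyme, rose from 35.4 to 52.6 CPM to between 129 and 171 CPM (1.72 ± 0.13, adjusted p = 5.5e-06). The protease inhibitor Timp1 rose by 3.08 ± 0.56, with TAC 3 at 43.1 CPM and the other TAC hearts at 13.4 to 15.3 CPM. Mmp14 (1.31) and Mmp2 (0.85), proteases of the matrix, rose too.

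**Figure D3:**
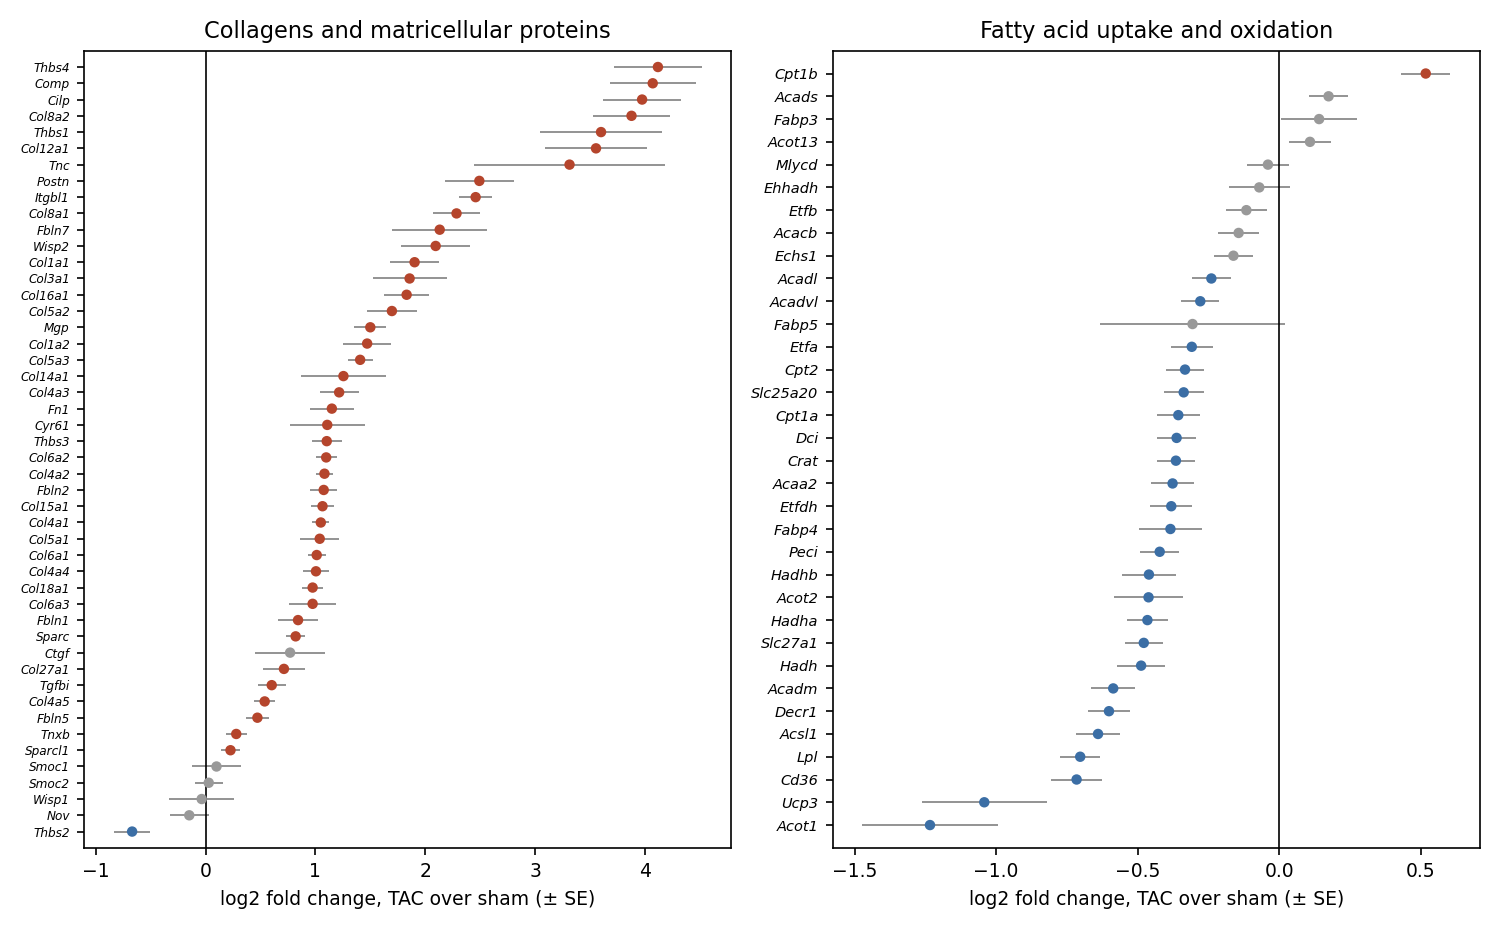
Log2 fold change (TAC over sham) with its SE for each tested member of the collagen and matricellular lists (left panel) and of the fatty acid list (right panel). Red rose, blue fell, grey did not pass, and the panels have different axes. The left panel runs from -0.67 (Thbs2) to 4.12 (Thbs4), the right one from -1.23 (Acot1) to 0.52 (Cpt1b).

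Among TGF-beta and BMP genes 11 of 26 rose and 4 fell. The ligand Tgfb2, a driver of matrix production, went from 10.6, 10.9, 11.2 and 10.5 CPM to 25.1, 20.7, 29.0 and 20.3 CPM (1.14 ± 0.12, adjusted p = 5.5e-06). Tgfb3 rose by 0.89, Tgfb1 by 0.52, and the activin chains Inhba and Inhbb by 1.35 and 1.46. The receptor Tgfbr2 rose by 0.26, the coreceptor Tgfbr3 fell by 0.76 and the BMP receptor Bmpr1a by 0.56. Fstl3, a secreted antagonist of activin, rose by 2.15, and Fstl1 rose by 1.37. Integrins and basement membrane genes split 13 up and 4 down of 27, with Itga11, a collagen receptor of fibroblasts, up by 1.07. In the Wnt and IGF list 14 of 25 rose and 2 fell. The secreted Wnt antagonists Sfrp2 (2.29), Frzb (2.12) and Dkk3 (2.37) rose, while Axin2, a general target of Wnt signalling, fell by 0.63.

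Genes of fatty acid use fell together: 24 of 34 fell and 1 rose, with a median of -0.36. Lpl, the lipase that frees fatty acids at the vessel wall, went from 2732, 2816, 2927 and 2932 CPM to 1656, 1706, 1665 and 1979 CPM (-0.70 ± 0.07, adjusted p = 3.3e-06). Cd36, their importer, fell by 0.72, Acsl1, which activates them, by 0.64, and the beta-oxidation enzymes Acadm, Hadha and Hadhb by 0.59, 0.47 and 0.46. In Lpl the TAC hearts all lay below the sham hearts, and TAC F1 was the nearest to them. The member that rose was Cpt1b, the muscle carnitine palmitoyltransferase, at 20.3 to 24.4 CPM in sham and 29.4 to 34.5 CPM in TAC (0.52 ± 0.09, adjusted p = 0.00028), while Cpt1a fell by 0.36 and Cpt2 by 0.33. TAC 3 was the lowest TAC heart in 22 of the 34 genes. With the 4 libraries that match their label 26 fell and 3 rose, and 3 rose without TAC 3.

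The citric acid cycle and pyruvate entry list fell in 17 of 28, with 1 rise and a median of -0.21. Dld, a shared subunit of the pyruvate and oxoglutarate dehydrogenases, fell from 144, 135, 145 and 146 CPM to 78.5, 92.1, 82.1 and 101 CPM (-0.69 ± 0.08, adjusted p = 9.0e-06), and Cs, citrate synthase, by 0.42. The exception was Brp44l, a subunit of the mitochondrial pyruvate carrier (listed today as Mpc1), which rose by 1.41 ± 0.33, while its partner Brp44 fell by 0.57. Pdk4, the kinase that shuts pyruvate dehydrogenase, overlapped between groups (0.06 ± 0.36, adjusted p = 0.92), at 218 to 588 CPM in sham and 275 to 599 CPM in TAC. Ketone and branched-chain amino acid genes fell in 12 of 23. Bdh1, the ketone-oxidising dehydrogenase, was the main exception, at 82.5, 70.1, 44.7 and 74.8 CPM in sham and 311, 317, 233 and 287 CPM in TAC (2.07 ± 0.19, adjusted p = 0.00014).

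Glucose genes rose in 10 (29.4%) and fell in 5 (14.7%) of 34, and 3 fell when TAC 1 or any sham heart was left out. These shares were near those over all coding genes, 23.5% and 14.2%. Hk1 (0.51), Pfkp (0.98), Pgam1 (0.88), Eno1 (0.46) and Ldha (0.31) rose, and the glucose transporter Slc2a4 fell by 0.38. Pfkfb1, an enzyme that sets the level of a glycolysis activator, fell most in this list. It went from 44.8, 30.4, 33.2 and 47.4 CPM to 6.33, 7.86, 6.53 and 6.91 CPM (-2.50 ± 0.15, adjusted p = 8.9e-08). Nuclear genes of the respiratory chain rose in 13 (17.1%) and fell in 16 (21.1%) of 76, with a median of -0.03. Over all coding genes 23.5% rose and 14.2% fell. Of the 76 genes, 56 belong to the shortest length group, in which 32.3% rose and 8.77% fell. TAC 2 was the highest TAC heart in 58 of the 76. Regulators of energy metabolism rose in 3 (11.5%) and fell in 4 (15.4%) of 26, with log2 fold changes from -0.46 to 1.88 over all tested members. Ppara fell by 0.37, and Esrra (-0.05), Esrrg (-0.14) and Ppargc1b (0.05) did not pass. Ppargc1a shares nearly all its exonic bases with other features and could not be tested.

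The 8 tested mitochondrially encoded genes all fell, with a median of -1.89, but the groups overlapped in 7 of them. mt-Nd2, a subunit of complex I, shows the pattern: 9166, 1811, 12009 and 10629 CPM in sham and 1366, 3164, 1363 and 1486 CPM in TAC (-2.19 ± 0.64, adjusted p = 0.0389). Sham 2 stood among the TAC hearts. Only mt-Nd3 was separate, at 4.31 to 14.5 CPM against 1.43 to 3.98 CPM (-2.26 ± 0.46, adjusted p = 0.0066). Without sham 2, 10 of the genes were called, some of them tested only in that fit, whereas leaving out sham 3, or sham 4, left 1 and leaving out sham 1 left 2. With limma-voom 3 were called. The share of all counts in these genes did not pass its own test (exact two-sided permutation test, p = 0.0571).

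Clock genes changed in opposite directions. The circadian clock is a loop in which Arntl, with Clock or Npas2, turns on the Per and Cry repressors and the output factors Dbp, Tef and Hlf, so levels of all of them follow the time of day. Arntl rose from 1.32, 1.18, 1.85 and 2.08 CPM to 17.6, 17.3, 7.42 and 13 CPM (3.10 ± 0.31, adjusted p = 3.0e-05), and Npas2 from 1.98 to 2.65 CPM to 5.46 to 12.8 CPM (1.94 ± 0.25). The groups were separate, and TAC 3 was the lowest TAC heart for both. Nfil3, a repressor of the same output sites, rose by 0.70.

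The other 10 called members of this list fell, of 18 tested. Per3 went from 44.0, 45.4, 50.6 and 46.9 CPM to 14.3, 17.9, 20.8 and 15.3 CPM (-1.44 ± 0.11, adjusted p = 1.3e-07). Tef went from 243, 206, 242 and 237 CPM to 81.3, 94.6, 108 and 92.1 CPM (-1.30 ± 0.08, adjusted p = 5.4e-08), and Hlf from 39.8 to 53.5 CPM to 11.6 to 16.5 CPM (-1.83 ± 0.12). Within each group these genes varied little, and TAC 3 was the highest TAC heart for all of them. Per2 (-1.44), Nr1d2 (-1.39), Dbp (-1.35) and Cry2 (-0.88) fell, and Rora, Bhlhe41 and Cry1 fell by 0.39 to 0.49. Per1 (-0.33), Nr1d1 (-0.02) and Clock (0.14) did not pass. The counts were 3 up and 11 down both without sham 2 and with the 4 libraries that match their label. The time of collection is not in the labels used here, so its part in these values was not tested.

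Dbp, Tef and Hlf, and their competitor Nfil3, bind the D-box, so the promoter of Per3 is shown, with D-boxes (TTATGTAA or TTACGTAA) in capitals. It is the 250 bases before the start in RefSeq (GRCm38.p6, chr4:151044666-151044915, minus strand, 5′ to 3′), and the motif was chosen after the values of these genes were known.
Per3: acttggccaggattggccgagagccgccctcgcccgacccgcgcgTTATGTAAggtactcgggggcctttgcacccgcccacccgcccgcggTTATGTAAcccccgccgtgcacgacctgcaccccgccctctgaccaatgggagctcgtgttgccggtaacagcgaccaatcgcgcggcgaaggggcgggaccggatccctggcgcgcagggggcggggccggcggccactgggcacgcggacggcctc
The D-boxes begin 205 and 158 bases before the start. A D-box was found in 1.06% of all promoter windows, in 0.583% of those of tested genes, in 0.929% of those of genes that fell and in 0.471% of those of genes that rose, on both strands. An E-box (CACGTG), the site of Arntl and its partners, was in 7.24% of all windows, in 10.4% of those of tested genes, in 9.13% of those of genes that fell and in 10.5% of those of genes that rose. The Tef window holds an E-box at 127, and the windows of Arntl, Dbp and Hlf hold none of the motifs searched.

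**Figure D4:**
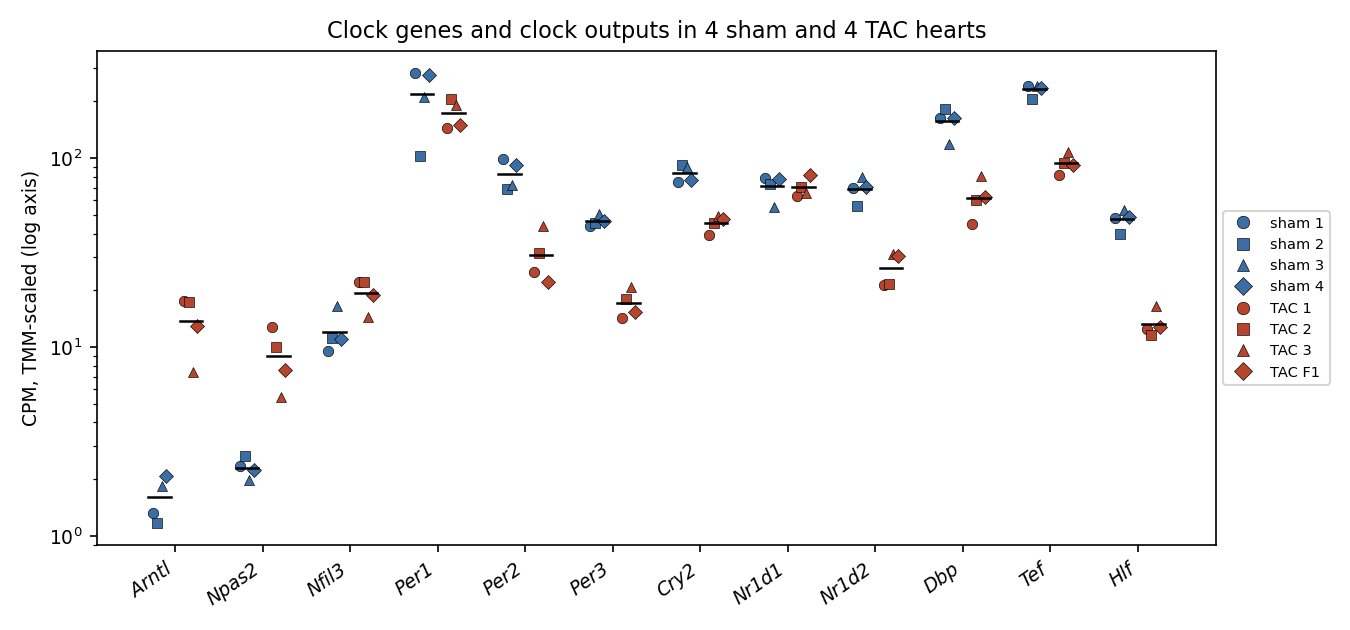
Level of 12 clock genes and outputs in CPM (log axis) in each sham (blue) and TAC (red) library, with bars at group means. Arntl and Npas2 are higher in all TAC hearts, Per2, Per3, Cry2, Nr1d2, Dbp, Tef and Hlf are lower in all of them, and Per1 and Nr1d1 overlap.

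Immediate early genes and heat shock proteins rose in 14 of 29 tested and fell in none. They varied widely among the TAC hearts. Egr1, a serum- and stretch-induced factor, was at 82.2, 45.8, 78.4 and 80.7 CPM in sham and at 174, 667, 83.8 and 108 CPM in TAC. The groups were separate by a small margin, TAC 2 was several-fold above the rest, and the gene did not pass (1.85 ± 0.75, adjusted p = 0.103). Fos did not pass either, at 3.14 to 24.1 CPM in sham and 4.80 to 71.3 CPM in TAC (1.0 ± 1.01, adjusted p = 0.485). Without TAC 2 its sign turned (-0.22). Egr2 rose from 0.565 to 1.08 CPM to 18.5, 57.1, 7.07 and 7.67 CPM (4.72 ± 1.09, adjusted p = 0.017), and lost its call without sham 1 or without sham 4 (adjusted p = 0.0511 at most). Nr4a3, an orphan nuclear receptor, was more even, at 2.16 to 5.55 CPM against 13.2 to 18.5 CPM (2.18 ± 0.21). The heat shock genes Hspa1a and Hspa1b, near-identical copies, reached 37.6 and 29.3 CPM in TAC 3 and 1.25 to 7.53 CPM in the other TAC hearts, from under 1 CPM in sham. Of the pair, Hspa1b passed and Hspa1a did not.

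Stretch and hypertrophic signalling genes rose in 15 and fell in 10 of 46. The filamin Flnc (1.02), the Z-disc gene Synpo2l (1.06) and the LIM protein Fhl1 (1.17) rose, and the growth signal relay Pik3r1 (-1.01) and the neuregulin receptor Erbb4 (-0.71) fell. Ribosome biogenesis and tRNA synthetase genes rose in 15 of 37 and fell in 2. Among these, Rpl3l, the muscle form of a ribosomal protein, fell by 0.54 ± 0.06, while Rpl3 rose by 1.73. Cytoskeletal genes rose in 20 of 33, including Tubb2b (1.89), Tubb6 (1.35), Tuba1b (1.05), Vim (0.84) and Lmna (0.91), and 1 fell, Tuba4a (-0.21). The unfolded protein response was close to balanced, 4 up and 4 down of 28 (2 down without TAC 1 or TAC 2), and Herpud1, which helps degrade proteins of the endoplasmic reticulum, fell from 261 to 379 CPM to 145 to 173 CPM (-1.10 ± 0.11, adjusted p = 9.1e-06). DNA replication and mitosis genes mostly did not pass, with 5 up and 1 down of 31. Cdkn1a, the inhibitor p21, rose from 23.3, 19.4, 23.4 and 26.5 CPM to 92.8, 73.0, 66.0 and 57.9 CPM (1.64 ± 0.15, adjusted p = 1.4e-05).

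Markers of the cell types that an apex can hold moved as follows, and in such bulk tissue a change in the number of cells and a change in RNA per cell cannot be told apart. Fibroblast markers rose in 9 of 13 and fell in none, with a summed level of 3306 to 3583 CPM in sham and 4877 to 7013 CPM in TAC. Besides the collagens among them, Mfap5, a microfibril protein, rose by 1.87, Fbln1 by 0.84, Cygb by 0.77 and Tcf21 by 0.42. Pdgfra and Gsn each rose by 0.25, and Dcn (-0.02), Dpt (0.12) and Dpep1 (-0.04) did not pass. Activated fibroblast markers rose in 8 of 12 (in 5, with 1 that fell, in the 4 libraries that match their label), and their sum went from 430 to 513 CPM to 842 to 1442 CPM. The part of fibroblast numbers in the matrix results was not tested.

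Macrophage markers rose in 7 of 13, from 483 to 530.3 CPM summed to 650 to 919.6 CPM, with C1qa, C1qb and C1qc up by 0.56 to 0.66, Cx3cr1 by 1.36, and TAC 3 highest. Chemokine, cytokine and complement genes, which these cells share, rose in 14 of 27 and fell in 2, of which Ccl11 fell by 2.59. Endothelial markers split 2 to 2 of 12, and their sums overlapped (2580 to 2702 CPM in sham, 2370.4 to 2902 CPM in TAC). Smooth muscle and pericyte markers rose in 3 and fell in 2 of 12, and with the 4 libraries that match their label in 0 and 5, while 1 rose without sham 3, sham 4 or TAC F1. Cardiomyocyte markers fell in 4 of 10 and rose in 1, and their sums overlapped. Of 6 tested Schwann cell and neuron markers 4 fell, among them S100b (-1.08), Sox10 (-0.98) and Dbh (-0.99), at levels of a few CPM. Without TAC 1, 2 of these markers fell. Of 7 tested members of the atrial and conduction list 4 rose and none fell. Nppa, Myl4 (1.66), Myl1 (1.14) and Hcn4 (0.52) rose, of which Myl1 is also in the sarcomere list. The groups overlapped for Myl4 and Hcn4, and Hcn4 lost its call in 5 of 8 fits that left out 1 library. Cacna2d2 (-0.36), Tbx3 (-0.15) and Stard10 (-0.08) did not pass. Myl7 and Bmp10 had too few counts to test, with Myl7 at 1.74 CPM in TAC 1 and both under 1 CPM in the other hearts, and Sln could not be measured, so the summed level of the atrial list rests on Nppa. Of the scarcer types, epicardial markers rose in 2 of 4, neutrophil and mast cell markers in 2 of 5, lymphocyte markers in 1 of 3, and adipocyte markers in 1 of 4 with 2 that fell, while none of 6 erythroid markers passed (4 rose in the 4 libraries that match their label).

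NONCODE transcripts moved mostly down. Of 2894 tested, 107 (3.70%) rose and 1025 (35.4%) fell, with a median of -0.44 against 0.06 for coding genes. Most overlap a coding gene: 1008 lie within introns, 1088 touch a coding exon and 798 lie outside coding genes. Those in introns fell in 49.8% and rose in 1.09% (median -0.74), those on exons fell in 29.2% and rose in 3.58%, and those outside fell in 25.7% and rose in 7.14% (median -0.27). All intronic NONCODE features together held 0.900%, 1.05%, 0.879% and 0.929% of the counts in sham and 0.589%, 0.597%, 0.6% and 0.598% in TAC. The groups were far apart, and the TAC libraries were nearly equal. For those outside coding genes the shares overlapped, at 1.85% to 2.35% and 1.59% to 2.14%.

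Part of the host genes fell with their intronic features. Of 450 intronic features that fell and lie on the strand of a coding gene around them, 441 had a tested host. The host was the first coding gene that overlaps the feature, so with more than 1 it need not be the same-strand gene. The host fell for 159 features (36.1%), rose for 47 (10.7%) and did not pass for 235. A gene that hosts more than 1 feature was counted once for each. The median of the hosts, so counted, was -0.12 against -1.19 for the features. For 413 same-strand intronic features that did not pass and had a tested host, the host fell in 21.5%. Of all coding genes, each counted once, 14.2% fell. The libraries are not strand-specific per the labels, so reads from unspliced host RNA and from an intronic transcript cannot be told apart.

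**Figure D5:**
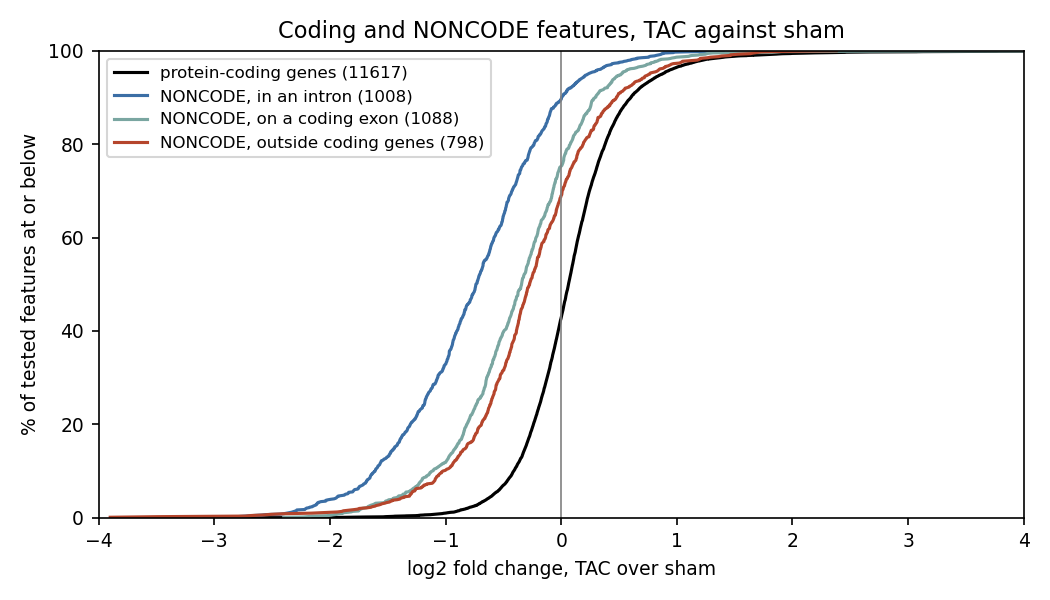
Cumulative share (%) of tested features at or below each log2 fold change (TAC over sham) for coding genes and for NONCODE features within introns, on coding exons and outside coding genes, with the number of features in brackets. The intronic curve is the furthest left, with a median of -0.74, and the coding curve crosses 50% near 0.06.

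Outside coding genes, 57 NONCODE features rose and 205 fell. The steepest increase named was n264397 (mm9, chr6:128789767-128793467, 2 exons), at 0.471, 0.686, 0 and 0.607 CPM in sham and 2.29, 3.45, 2.33 and 1.92 CPM in TAC (2.38 ± 0.40, adjusted p = 0.00028). Its nearest coding gene, Klrb1b, 13444 bases away, had too few counts to test. n273406 (chr1:94912042-94914798) lies 60 bases from Kif1a on the same strand, and both rose, by 1.73 and 1.88. The steepest decrease was n269772 (chr13:103129223-103129934), from 4.52, 2.06, 4.36 and 3.47 CPM to 0.0918, 0.0884, 0.268 and 0.480 CPM (-3.90 ± 0.42, adjusted p = 5.6e-06). Its nearest coding gene, Cd180, lies 353704 bases away and was not tested. n278873 (chr9:101244523-101250347) fell by 2.73, and Ppp2r3a, 129025 bases away on the opposite strand, fell by 0.55. n286022 (chr9:90051300-90054642) fell by 2.16, and Adamts7, 3174 bases away on the opposite strand, fell by 0.72. These features are rare, with sham and TAC levels of a few CPM or less. Not all tested neighbours of the NONCODE features chosen moved with them. S1pr1 (-0.02) beside n283525 (1.96), Rpia (0.15) beside n295815 (1.66) and Ddx10 (0.18) beside n291556 (-2.51) did not pass. Mpped2 (-0.79) fell beside n271170 (-2.05).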

How the data were processed

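Polyadenylated RNA from single hearts was sequenced as non-strand-specific single-end reads, per the labels' protocols. The authors deposited raw counts per feature, 1 column per library. Bowtie, TopHat 1.3.0, HTSeq, DESeq and edgeR and the build mm9 (NCBIM37) are named in the submitters' processing notes, while counting mode and filters are unknown here. In all 27 library files the counts equalled those of the summary table. The Total line was left out, and no column was without a sample.

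Fits used R 4.3.3 with edgeR 4.0.16: expression filter (minimum count 10, minimum total 15), TMM scaling and robust quasi-likelihood tests, 4 sham against 4 TAC, at an adjusted p under 0.05. DESeq2 1.42.0 and limma 3.58.1 (voom) were alternatives, with other scalings, filters and left-out libraries. Shares were compared by exact permutation with scipy 1.17.1, figures drawn with matplotlib 3.10.9, and the fit tested on simulated data. Each standard error was taken as the size of the log2 change divided by the root of its F statistic. Of all features, 6532 share every exonic base with another one. NONCODE positions and exonic lengths come from the series' mm9 annotation; promoter letters come from RefSeq (GRCm38.p6), which matched 14841 coding genes by symbol.

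The 35 gene lists, 14 marker lists and 8 motifs were chosen with earlier results of these data known; 1 list, of known long noncoding RNAs, had no tested member. Named genes are the 12 coding genes with the largest called change in each direction (mean of at least 5 CPM, groups not overlapping), 6 NONCODE features outside coding genes in each direction (at least 1 CPM), up to 4 called members per list, a set of known stress genes, and the 4 genes of at least 50 CPM with the smallest adjusted p in each direction. Further list members are named beside the counts of their list and were chosen after their values were seen. Same-numbered sham and TAC hearts did not deviate together, with correlations of 0.02, -0.05 and 0.01, so the numbers were not used as pairs. P-values measure the spread between the hearts of a group. Some results are not reported here.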

Additional observations from a re-analysis of the deposited data

Results flagged for a closer look

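In 342 groups of 4 hearts, each the sham or the TAC values of a gene named by the rules or a share, 22 had an end value far from the other 3 (Dixon's test, 95% critical value). Chance flags about 1 in 20 groups. Of these 22, 8 were in sham 2, 5 in TAC 2, 4 in TAC 3, 3 in TAC F1 and 2 in sham 3.

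In sham 2 the low values were Dld at 135.4 CPM, Tef at 206 CPM, Egr1 at 45.78 CPM, Tubb2a at 20.59 CPM, mt-Nd4 at 1163 CPM and the mitochondrially encoded share at 1.774% of counts. Its high values were Isg15 at 7.745 CPM and the NONCODE share at 4.186% of counts. In sham 3 Dnajc3 was high at 35.95 CPM and Comp at 1.982 CPM.

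In TAC 2 the high values were Fos at 71.31 CPM, Nppb at 747.3 CPM, Egr1 at 666.8 CPM and mt-Nd2 at 3164 CPM, and n286022 was low at 0.0884 CPM. In TAC 3 the high values were Itgb2 at 23.16 CPM, Timp1 at 43.11 CPM, Col3a1 at 1752 CPM and Tnc at 55.27 CPM, the latter with the other TAC hearts near 10.3 CPM. In TAC F1 Lpl was high at 1979 CPM, Ctsz was low at 73.68 CPM and the Myh7 share of both myosins was low at 1.866%. Across 2337 coding genes that rose and did not overlap, TAC F1 was the TAC heart nearest to sham in 39.3% and sham 2 the sham heart nearest to TAC in 38.1%. Across 1322 that fell the shares were 42.7% and 41.5%. An even division over 4 hearts would give 25% each.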

How the results depend on the processing

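No feature called in the analysis reported was called in the opposite direction under any alternative run. Counts over all features and classes that moved by more than 1.5 times included these. At a log2 fold threshold of 0.5, 462 features rose and 499 fell, of which 432 and 145 were coding and 30 and 353 NONCODE (16 and 59 outside coding genes). With the 3 libraries without Y-linked counts (2 sham, 1 TAC, 1 residual degree of freedom), 861 rose and 474 fell, 835 and 296 coding, 24 and 177 NONCODE (11 and 38 outside). With no filter NONCODE features gave 188 and 1659 (101 outside rose), and with all 27 libraries in 1 fit 1094 coding genes fell. With the replicate number as a replicate block (6 libraries) 1007 coding genes fell, against 1226 in the same 6 libraries unblocked. Leaving out 1 library gave 2265 to 2718 coding genes higher and 1287 to 1713 lower. Of 70 counts over gene lists, 12 moved that far with DESeq2, 20 with all 27 libraries, 21 with the block, 10 in the libraries matching their label, 50 in those without Y-linked counts, 55 at the fold threshold, 14 with no filter and 5 to 11 when 1 library was left out. DESeq2 was run without the filter on 35295 features, with a median log2 fold change of -0.11. The edgeR fit with no filter had -0.08 over as many. Over the coding genes tested in the main fit, the DESeq2 median was the higher one in each length group. It was 0.23 against 0.19 in the shortest and -0.03 against -0.07 in the longest.

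Signs turned in 3 named genes that had not passed. Pdk4 was -0.54 in the 3 libraries without Y-linked counts, -0.0012 without NONCODE features and -0.183 to 0.312 over left-out libraries; Fos ranged from -0.221 to 1.48. Myh6 was 0.0071 with no filter, 0.0952 in the libraries with Y-linked counts, 0.0962 in those matching their label and -0.0954 to 0.0364 over left-out libraries. Gata4 and Kcnh2, which had passed, were at -0.000543 and 0.0003946 in the 3 libraries without Y-linked counts.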

Other observations

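Several of the named genes lay outside the lists described. Ckap4, an endoplasmic reticulum membrane protein, and Rrp12, a ribosome assembly factor, rose evenly, each by about 2-fold (1.13 ± 0.07 and 1.17 ± 0.07). Ppl, the junction protein periplakin, fell from 32.6 to 54.5 CPM to 8.26 to 15.7 CPM (-1.90 ± 0.21), Mylk4, a myosin kinase relative, by 1.49 ± 0.12, and the carboxylesterase Ces3 by 1.56 ± 0.09. Cenpf, a kinetochore protein, fell by 1.79 ± 0.28, from 22.4, 27.7, 17.3 and 21.2 CPM to 3.76, 4.33, 9.03 and 8.63 CPM. It was the sole called decrease of the replication and mitosis list, in which Mki67 (0.21) and Top2a (0.28) did not pass. In the 6 called genes of this paragraph the groups did not overlap.

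Cardiac transcription factors rose in 12 of 29 (7 without sham 4) and fell in 5. Tbx5, a chamber factor, fell from 68.2, 67.8, 69.4 and 63.8 CPM to 35.6, 33.3, 39.6 and 33.1 CPM (-0.93 ± 0.08, adjusted p = 3.4e-07), and Meox1, a homeobox factor of activated fibroblasts, rose by 2.05 ± 0.28. Nkx2-5 (0.53), Hand2 (0.44) and Gata4 (0.23) rose. Of 26 vessel growth factor genes 6 rose and 6 fell, but only 2 fell without TAC 1, TAC 2 or sham 3 and 3 without sham 1 or sham 4: Vegfa rose by 0.51 and Vegfc by 0.81, while Angpt1 fell by 1.44 ± 0.21 and Pgf by 1.04 ± 0.26. Of angiotensin, endothelin, natriuretic and adrenergic genes 6 of 25 rose and 5 fell. The mineralocorticoid receptor Nr3c2 fell from 35.5 to 39.1 CPM to 17.8 to 19 CPM (-1.0 ± 0.08, adjusted p = 2.5e-07), the adrenergic receptor Adra1a by 1.05 and Corin, the protease that activates natriuretic peptides, by 0.79. The receptor kinase Grk5 rose by 1.21. Among antioxidant genes 7 of 29 rose and 5 fell, with Gpx3 up by 0.92 ± 0.08 and Gstk1 down by 0.78 ± 0.07. Muscle ubiquitin ligases Trim63 (0.10) and Fbxo32 (-0.03) did not pass, while lysosomal Ctsz rose by 1.04, and 13 of 26 degradation genes rose and 5 fell (2 without TAC 1 or TAC 3, 3 without TAC 2 or sham 4). Regulators of energy metabolism split 3 up (5 without TAC F1) and 4 down of 26. Interferon genes rose in 6 of 22 and fell in 1, but 2 rose without TAC 1, sham 1 or sham 3, and 3 without TAC 3 or sham 4. Of 13 imprinted growth genes 1, Igf2, fell (-0.82). Over all coding genes 23.5% rose and 14.2% fell. The shares that rose lay near this for vessel (23.1%), angiotensin to adrenergic (24%), antioxidant (24.1%) and interferon genes (27.3%). In the same order, the shares that fell were 23.1%, 20%, 17.2% and 4.55%.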
